A study of Mus musculus with 12 samples.

Results

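The nuclear genes for subunits of the mitochondrial respiratory chain were followed in RAW264.7, an established macrophage-like line derived from a mouse tumour. They were taken by name from the deposited table, with Nduf, Sdh, Uqcr, Cyc1, Cox4 to Cox8 and Atp5 symbols kept and pseudogene names with -ps left out, which gave 84 of 53801 gene records. Of these, 35 belong to complex I, 4 to complex II, 9 to complex III, 20 to complex IV and 16 to complex V. All 84 are annotated as protein-coding, on 19 chromosomes with 3 on X and 0 on the mitochondrial genome. The study compared 4 groups of 3 RNA-seq libraries each. Control cells carried a control siRNA and silenced cells an siRNA against Synbindin, the product of Trappc4 and part of the TRAPP complexes that tether vesicles. Each was collected either without lipopolysaccharide (LPS, the bacterial cell wall component that Toll-like receptor 4 senses; 0 h) or after 4 h of LPS at 100 ng/ml, and cells of passages 3 to 5 were used throughout. The labels name neither the siRNA sequences nor the time from transfection to harvest. Nothing in the labels says whether the 3 libraries of a group came from separate cultures, and the p-values measure only how far these libraries spread, which may be technical.

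The respiratory chain sits in the inner mitochondrial membrane. Complex I takes electrons from NADH and complex II takes them from succinate, both pass them to ubiquinone, complex III hands them on to cytochrome c, and complex IV gives them to oxygen. Complexes I, III and IV pump protons, and complex V, the ATP synthase, uses the proton gradient to make ATP. All complexes except II mix nuclear-encoded subunits with subunits encoded on mitochondrial DNA. In macrophages given LPS the chain is known for a shift of energy metabolism towards glycolysis and for the use of succinate oxidation in making reactive oxygen species.

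Values are FPKM, fragment counts scaled by transcript length and by the fragments mapped in a library, so that levels of different genes can be set side by side per length. Fold changes were taken as differences of log2(FPKM + 1), a scale on which low genes appear to change less than they do, and a gene was called when its adjusted p from limma was under 0.05. Sequencing depth could not be recovered from the FPKM values. Trappc4 was at 12.5 to 14.1 FPKM in control cells without LPS and 4.35 to 7.17 in silenced cells, and at 9.45 to 15.7 and 5.86 to 8.26 after LPS, so 44.5% and 56.1% of the control mean remained. Its groups did not overlap at either time (2-sided exact permutation p = 0.1, which is the lowest value 3 libraries per group can give, and adjusted p by limma 0.0558 and 0.120). The 9 macrophage marker records summed to 1578 to 1713 FPKM in control cells and 2175 to 2626 in silenced cells without LPS, and to 1509 to 1898 and 2029 to 2754 after LPS. Most of that difference came from Lyz2, the lysozyme gene, at 508 to 588 and 958 to 1344 FPKM without LPS and 435 to 509.9 and 834 to 1242 after LPS. The other 8 records summed to 1070 to 1146 and 1188 to 1282 without LPS and to 1065 to 1411 and 1195 to 1537 after LPS. Among them Spi1, a defining macrophage transcription factor, had log2 differences of -0.13 and -0.03 with silencing. Cd14 was higher in silenced cells without LPS, at 285, 322 and 265 FPKM against 190, 199 and 172 in control cells, but was not called. Csf1r, Cd68, Adgre1, Fcgr1, Spi1 and the Itgam records overlapped between these groups. Each marker of T cells, B cells, neutrophils, fibroblasts and epithelial cells was under 1 FPKM in every library.

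Many subunit genes have near-identical copies elsewhere in the genome, and these bear on which record received the reads. A search of the 84 coding sequences against annotated transcripts found 37 copies of at least 95% identity over at least 80% of the coding length, for 20 members. Of the copies, 34 are annotated as pseudogenes. In 16 members the copies together held at least 1 FPKM, and in 5 they held more than the named gene. Atp5g1, one of the genes for the proton-carrying c subunit of complex V (ENSMUSG00000006057, chr11:96068852-96075670, minus strand, GRCm38), averaged 8.33 FPKM over the 12 libraries, while its copy Gm10039 (chr11:100361716-100362126, minus strand) averaged 66.5, or 88.9% of their sum. Ndufa12, an accessory subunit of complex I (ENSMUSG00000020022, chr10:94198720-94221443, plus strand), averaged 16.6 FPKM and its copy Gm15920 (chr5:130188395-130188796, plus strand) 84.4, or 83.5% of the sum. The coding sequences below, each 60 bases long and taken from the GENCODE M21 transcripts (for Atp5g1, coding bases 349 to 408), are shown because each holds a base at which gene and copy differ, in capitals. The Atp5g1 pair differs at 1 of 408 aligned bases and the Ndufa12 pair at 2 of 399.
Atp5g1: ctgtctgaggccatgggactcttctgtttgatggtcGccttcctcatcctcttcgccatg
Gm10039: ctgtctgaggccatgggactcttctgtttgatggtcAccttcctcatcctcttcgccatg
Ndufa12: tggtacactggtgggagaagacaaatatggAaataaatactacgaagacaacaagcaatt
Gm15920: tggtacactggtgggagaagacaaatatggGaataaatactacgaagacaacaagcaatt
Fragments without such a base cannot be assigned to gene or copy by their letters, and the authors' treatment of reads with several matches is not given in the sources used here. Copies held 81.9% of the sum for Atp5l, 52.8% for Atp5g2 and 51.9% for Cox7c, and the aligned coding sequence of the copy Gm12338 matched that of Cox7c at every one of 189 bases. The levels of these 5 genes are therefore uncertain. So are those of other genes with a large share on copies, such as Ndufb4 (45.9%), Uqcr11 (40.8%), Cox5b (37.1%), Atp5h (32.3%) and Ndufs3 (29.0%). Each limma comparison was repeated with every gene and its copies summed, but the sums and shares by complex were not.

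**Figure D1:**
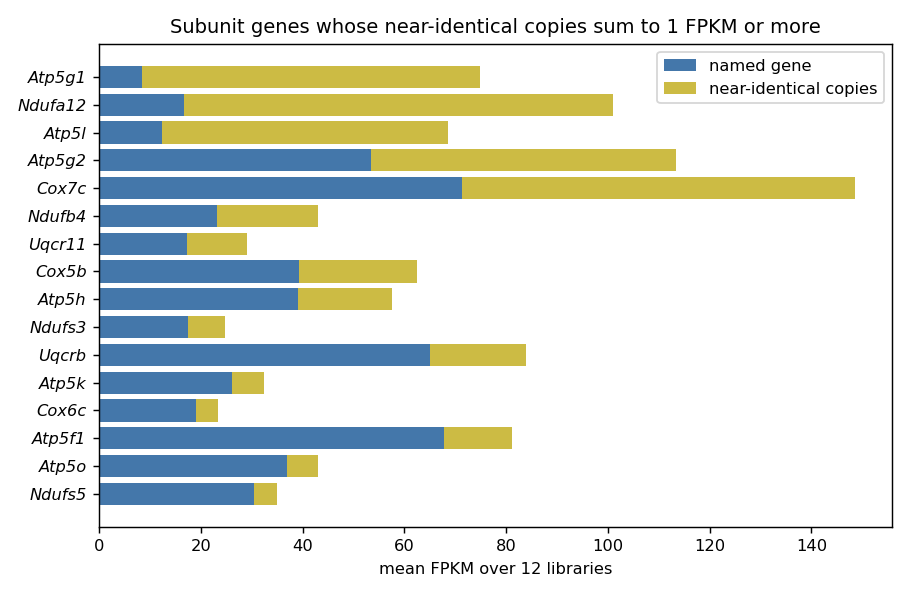
Mean FPKM over the 12 libraries of the 16 members whose near-identical copies together held at least 1 FPKM, with the named gene in blue and the sum of its copies in yellow. In Atp5g1, Ndufa12, Atp5l, Atp5g2 and Cox7c the copies hold more than the named gene.

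Of the 84 members, 78 passed the filter of at least 1 FPKM in at least 3 libraries and were tested. The other 6 are isoform genes of complex IV whose products are known from particular tissues or conditions. Cox7b2, Cox8b and Cox8c were listed at 0 in all 12 libraries, and Cox4i2, Cox6b2 and Ndufa4l2 averaged 0.463, 0.359 and 0.0597 FPKM. The chain was otherwise transcribed at high levels. The tested members had a median of 34.1 FPKM against 6.63 over all 13078 genes tested, 73 of 78 lay above the median gene, and 37 of 78 lay in the top 10%. Atp5b, the catalytic beta subunit of the ATP synthase, was highest at 241 FPKM, followed by its alpha subunit partner Atp5a1 at 225 and by Cox8a, a small complex IV subunit, at 196. The lowest tested members were Cox6a2 at 1.37, Ndufb2 at 1.62 and Atp5s, a factor that is named for complex V but is not a subunit, at 1.92 FPKM. Ndufb2 shares exon positions with Gm42420, annotated as protein-coding, on the same strand and with Braf on the opposite strand. Its level is therefore uncertain whatever the strand setting. That setting is not given in the sources used here, although the libraries were strand-specific per the labels.

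By complex, the median level was 22.02 FPKM for complex I, 62.8 for complex II, 60.1 for complex III, 62.8 for complex IV and 35.2 for complex V. Levels within a complex were far apart, and in complex I the lowest was Ndufb2 at 1.62 FPKM, with the uncertainty given above. In complex II, the membrane anchor genes were at the 2 extremes, with Sdhc at 34.5 and Sdhd at 145 FPKM, and the catalytic subunits Sdha and Sdhb between them at 54.9 and 70.7. Complex III ran from Uqcr11 at 17.2, with 40.8% of its sum on copies, to the core protein Uqcrc2 at 116.6 FPKM. Cytochrome c1 (Cyc1) was at 51.7 and the Rieske iron-sulfur protein (Uqcrfs1) at 75.0.

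**Figure D2:**
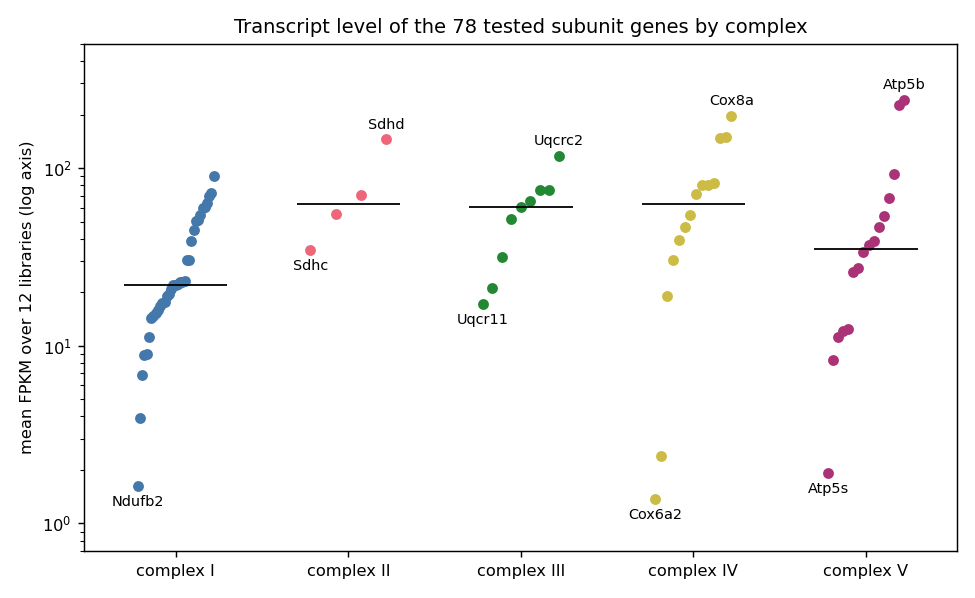
Mean FPKM over the 12 libraries (log axis) of the 78 tested members, each a dot, by complex, with the median as a line. Atp5b at 241 and Cox6a2 at 1.37 FPKM mark the range, and the medians of complexes I and V lie below those of II, III and IV.

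Where a position in complex IV has isoform genes, 1 of them was far above the others, except among the Cox7a genes. Cox4i1 averaged 80.5 FPKM against 0.463 for Cox4i2, Cox6a1 150.0 against 1.37 for Cox6a2, and Cox6b1 148 against 0.359 for Cox6b2. Cox7a2 averaged 80.6 FPKM, Cox7a1 2.40, and Cox7a2l, whose product joins complexes III and IV in supercomplexes, 54.3. Cox7b and Cox8a were at 82.5 and 196 where their isoforms Cox7b2, Cox8b and Cox8c were listed at 0. Ndufa4, named for complex I but found in complex IV, was at 46.4 FPKM, against 0.0597 for Ndufa4l2. In the c ring of complex V, the genes Atp5g1, Atp5g2 and Atp5g3, which encode the same mature protein, stood at 8.33, 53.5 and 46.6 FPKM. Cox6a2 was 0 or under 2 FPKM in 10 of the 12 libraries, and reached 5.83 and 5.08 in replicate 3 of the control and silenced cells given LPS.

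Summed over all members, the chain took up 1.17% ± 0.0363 of all FPKM in control cells without LPS (SD, n = 3, as for every mean ± SD that follows) and 1.20% ± 0.0576 in silenced cells. After LPS the shares were 1.10% ± 0.0516 and 1.08% ± 0.0421. The 13 mitochondrially encoded subunits summed to 53370 ± 3271 FPKM in control cells without LPS, far above the 3861 ± 199 FPKM of the 84 nuclear members. Between complexes, complex IV summed to 1073 ± 96.2 FPKM in control cells without LPS and 927 ± 25.5 after LPS, and to 1032 ± 85.1 and 983 ± 79.8 in silenced cells. Complex III stood at 500.1 ± 6.70 and 526 ± 30.2 FPKM in control cells, where silenced cells had 512 ± 23.5 and 516 ± 21.2.

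The share of a complex in the members' sum does not move when a library is rescaled. Complex IV took 28.7%, 27.95% and 26.6% of it in the 3 control libraries without LPS and 24.6%, 24.5% and 25.9% in those with LPS. Every control library with LPS lay below every control library without it, at 25.0% ± 0.773 against 27.8% ± 1.09. In silenced cells the complex IV share was 26.0% ± 0.638 without and 26.2% ± 1.09 with LPS, and the groups overlapped. Complex III took 12.97% ± 0.652 without and 14.2% ± 0.0631 with LPS in control cells, and in silenced cells 12.95% ± 0.270 and 13.8% ± 0.313, and in neither kind of cell did a library with LPS lie below one without. Complex II took 8.16% ± 0.165 without and 7.37% ± 0.193 with LPS in silenced cells, again without overlap, and 8.42% ± 0.530 and 7.95% ± 0.204 in control cells, with overlap. Complex I took 27.1% ± 0.180 without and 27.8% ± 0.369 with LPS in control cells, without overlap, while its silenced libraries overlapped (28.04% ± 0.451 and 28.4% ± 1.14). Complex V overlapped in both kinds of cell. These shares are descriptions and were not tested. They rest on the named records only. Copies averaged 66.5 FPKM for Atp5g1, 59.8 for Atp5g2 and 56.1 for Atp5l in complex V. For Ndufa12 in complex I and Cox7c in complex IV they averaged 84.4 and 77.1. The shares and their overlaps were not computed with copies included.

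**Figure D3:**
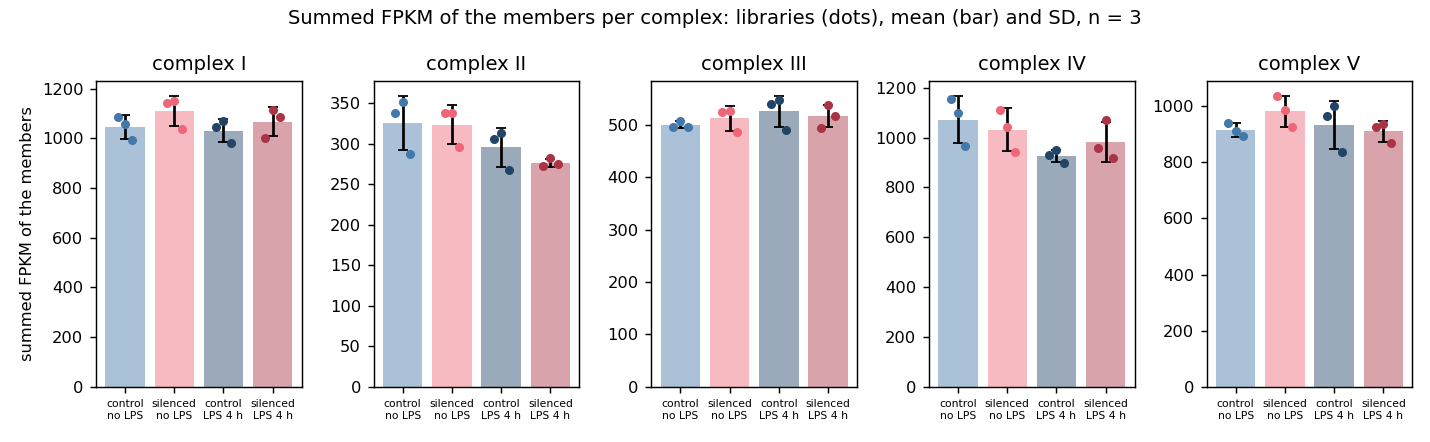
Summed FPKM of the members of each complex (one panel per complex, vertical axis from 0) in the 4 groups, with libraries as dots, the mean as a bar and the SD as error bar (n = 3). Near-identical copies are not included. Complex IV is at 1073 ± 96.2 in control cells without LPS and 927 ± 25.5 with LPS, with every control library with LPS below every one without, while the libraries with and without LPS overlap in complexes I, III and V.

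Libraries of a group differed in a common direction. The library numbered 3 held the lowest of the 3 values for 43 of 78 members in control cells and 49 in silenced cells without LPS, and for 55 in control cells with LPS. In silenced cells with LPS, library 1 was lowest for 34 members and library 3 for 31. The coefficient of variation of a member had a median of 9.69% to 12.7% over the 4 groups. It was largest in every group for Cox6a2.

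Silencing of Synbindin without LPS was compared first. Among the 78 tested members 0 were called by limma, where 0.214% of all 13078 genes tested were called in either direction, 0.122% higher and 0.0918% lower. Unadjusted p-values were under 0.05 for 8 members, or 10.3%, where 12% of all genes tested were; 7 of the 8 had higher values in silenced cells. The median log2 difference was 0.05 over the members and 0.01 over all genes. The 3 members with the smallest p were Cox7a2l, Ndufa2 and Cox7c. Cox7a2l (ENSMUSG00000024248, chr17:83501918-83517330, minus strand) was at 43.0, 42.3 and 41.4 FPKM in control cells, and the silenced cells had 62.7, 57.4 and 56.9. The groups lay apart, with all silenced libraries above all controls, and the log2 difference of 0.47 ± 0.08 (SE) just missed the threshold at adjusted p = 0.0514 by limma. Cox7a2l was called in 4 of 23 alternative settings. Among these were a stricter filter (adjusted p = 0.0433 by limma), median-ratio scaling (0.0482) and the fit without replicate 1 of the silenced cells given LPS (0.0492). Of the 12 fits that leave out a library, that was the only 1 to call it. Over all settings its adjusted p ran from 0.0332 to 0.187.

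Ndufa2, an accessory subunit of complex I, was at 23.5, 26.7 and 26.4 FPKM in control and 48.4, 42.4 and 31.3 in silenced cells, a log2 difference of 0.63 ± 0.18 with adjusted p = 0.218 by limma. Its exons overlap those of Tmco6 on the opposite strand. Cox7c, an integral subunit of complex IV, was at 80.9, 80.3 and 82.5 FPKM in control and 72.1, 69.1 and 64.1 in silenced cells, a difference of -0.25 ± 0.07 with adjusted p = 0.224. In both genes the groups did not overlap. Atp5b stood at 215, 208 and 210.0 FPKM in control and 241, 248 and 257 in silenced cells (0.24 ± 0.08, adjusted p = 0.256). In 7 of 78 members every silenced library lay above every control and in 3 every one lay below, against 9.86% and 8.35% of all genes tested. The catalytic subunits Ndufv1, Ndufs1, Sdha, Cyc1 and Uqcrfs1, and the large complex IV subunit Cox4i1, had log2 differences of 0.03, -0.09, 0.07, -0.05, 0.05 and -0.12. For Sdha the 95% interval ran from -0.07 to 0.22, and for Cox4i1 from -0.49 to 0.25.

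After LPS, silencing went with a lower level of 1 member, Sdha, the flavoprotein of complex II that oxidizes succinate (ENSMUSG00000021577, chr13:74322254-74350280, minus strand). Sdha was at 64.4, 68.2 and 60.8 FPKM in control cells with LPS and 48.2, 49.5 and 48.0 in silenced cells with LPS. All silenced libraries lay below all controls, within a narrow range of their own. The group means were 64.5 ± 3.71 and 48.6 ± 0.843 FPKM, and Sdha fell by 0.40 ± 0.07 on the log2 scale (adjusted p = 0.0296 by limma). Over all genes tested, 0.719% were called in this comparison, 0.405% lower and 0.314% higher. That background moved too, from 94 genes called to 15, 16 and 96 without replicate 1, 2 or 3 of the control cells with LPS, to 20, 10 and 34 without those of the silenced cells with LPS, to 48 to 91 without any other library, and to 0 with only the groups compared. The difference stayed between -0.44 and -0.36 in all 23 alternative settings, with adjusted p from 0.0201 to 0.142, but the call was lost in 7. Of these, 5 leave out a single library: replicate 1 or 2 of the control cells with LPS (adjusted p = 0.103 and 0.123) and replicate 1, 2 or 3 of the silenced cells with LPS (0.0854, 0.106 and 0.0732). The call was also lost without the intensity trend (0.0616) and with only the groups compared in the fit (0.142).

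No call was made for the other subunits of complex II. Sdhb, the iron-sulfur subunit, had a log2 difference of 0.09 ± 0.08 after LPS, Sdhc 0.11 ± 0.09 and Sdhd -0.11 ± 0.13. Unadjusted p-values were under 0.05 for 4 members, or 5.13%, against 13% of all genes. The next members by p were Ndufs5 (0.33 ± 0.10, adjusted p = 0.2003 by limma), Ndufa2 (0.50 ± 0.18, 0.264) and Ndufs1 (-0.26 ± 0.10, 0.299). Ndufa2 was at 26.7, 24.0 and 17.2 FPKM in control and 33.7, 35.5 and 26.9 in silenced cells, again with no overlap. In 6 of 78 members every silenced library lay above every control and in 1 below, against 7.62% and 11.3% of all genes tested. The median difference was 0.03 over the members and -0.03 over all genes. Of the 9 macrophage marker records, 1 was called higher in silenced cells without LPS (Lyz2) and 2 after LPS (Lyz2 and Fcgr1). Cd14, Adgre1 and the 2 Itgam records were also higher after LPS but not called (0.54, 0.30, 0.33 and 0.60). Csf1r, Cd68 and Spi1 had log2 differences of -0.22, -0.21 and -0.03 after LPS. The part of these markers in the Sdha difference was not tested.

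The window before the Sdha start is shown because it carries more matches to the NRF1 motif than nearly all others. NRF1 is a transcription factor known to act on many respiratory chain genes. Its 10-base consensus was searched on both strands in RefSeq promoter windows (GRCm38.p6, 250 bases before to 50 after a start), which were found for 66 of the 84 members in 71 windows. It was in 25.4% of the member windows and in 4.603% of all 32851. In the Sdha window it starts 98, 55 and 10 bases upstream of the RefSeq start, which lies inside the GENCODE gene given above, and 2 member windows and 0.0974% of all windows hold at least 3 matches. The stretch below (chr13:74350281-74350308, minus strand, free of annotated exons) has the match at 55 bases upstream in capitals.
Sdha: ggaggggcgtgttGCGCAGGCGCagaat
Of the other motifs searched on either strand, the ETS motif CCGGAAG was in 22.5% of member windows against 8.86% of all, the YY1 motif AAGATGGC in 12.7% against 2.75%, and the estrogen-related receptor motif TCAAGGTCA in 2.82% against 0.423%. The member share for the estrogen-related receptor motif rests on 2 of 71 windows. A loose NF-kB consensus of 10 bases was in 23.9% against 20.7%. A match is a description of these letters and not evidence of binding.

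More members were called with LPS than with silencing. In control cells 10 of 78 members rose and 11 fell, while 48.2% of all genes tested were called, 15.3% higher and 32.9% lower. By complex, 5 rose and 4 fell of 35 in complex I, 1 and 1 of 4 in complex II, 1 and 0 of 9 in complex III, 1 and 3 of 14 tested in complex IV, and 2 and 3 of 16 in complex V. The changes were small, from -0.63 to 0.51 on the log2 scale among called members. Every control library with LPS lay above every one without in 10 of 78 members and below in 18. Over all genes tested the shares were 18.2% and 38.0%, so a lack of overlap was common. The median was -0.12 over the members and -0.17 over all genes, so that a gene with the median change was already lower after LPS. The direction of the calls therefore depends on how libraries are scaled. Median-ratio scaling, which moves the median of all genes from -0.17 to 0.02, gave 20 higher and 0 lower members, where 24.6% and 21.8% of all genes were called. Quantile normalization gave 3 higher and 24 lower (19.2% and 25.7% of all genes). A common sum without mitochondrially encoded genes gave 6 and 22 (12.2% and 40.2% of all genes). Over all genes, 31.7% of the calls were higher as deposited and 53% with median-ratio scaling. Without replicate 1 of the control cells lacking LPS, 6 members were lower (29.1% of all genes). Without replicate 1 or 3 of the control cells with LPS, 7 and 6 were lower (30.1% and 28.9%).

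Among members that rose in control cells, Cox7a2l changed most. It went from 43.0, 42.3 and 41.4 FPKM without LPS to 65.3, 58.7 and 58.5 with LPS, every library above every one without LPS, by 0.51 ± 0.08 (adjusted p = 0.000368 by limma), or 0.69 relative to the median gene. Uqcrc2, a core protein of complex III (ENSMUSG00000030884, chr7:120635176-120659524, plus strand), was at 107, 101 and 97.8 FPKM without and 137, 149.7 and 133 with LPS. It rose by 0.46 ± 0.10 (adjusted p = 0.00236), with no overlap, although not under quantile normalization (0.18, adjusted p = 0.145). Ndufa10, an accessory subunit of complex I (ENSMUSG00000026260, chr1:92439010-92473860, minus strand), was at 20.9, 20.0 and 21.5 FPKM without and 27.5, 25.9 and 26.8 with LPS, a rise of 0.35 ± 0.08 (adjusted p = 0.00332). Of the members called in this comparison, Cox7a2l and Ndufa10 were called in all 23 alternative settings.

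Calls among the catalytic subunits went both ways, with Ndufv2, Sdha and Atp5b among those higher and Ndufs1 lower. Ndufv2, an iron-sulfur subunit of the NADH-oxidizing module of complex I, rose by 0.35 ± 0.10. Sdha went from 51.2, 54.1 and 50.7 FPKM to 64.4, 68.2 and 60.8, without overlap (0.30 ± 0.07, adjusted p = 0.00283 by limma). Atp5b went from 215, 208 and 210.0 to 252, 287 and 237 FPKM (0.29 ± 0.08, 0.00785). Sdha and Atp5b kept their direction under quantile normalization but not their call (0.11 and 0.02, adjusted p = 0.187 and 0.824), and Atp5b was not called with a common sum without mitochondrially encoded genes either (0.17, 0.0678). Also called higher were Ndufb9 (0.38 ± 0.09) in the distal membrane arm of complex I, the accessory subunit Ndufa9 (0.34 ± 0.10), and Atp5f1, the b subunit of the peripheral stalk of complex V (0.31 ± 0.08). Ndufb9 shares exon positions with Gm49356 on the same strand, and Atp5f1 with Wdr77 and Uqcrc2 with Pdzd9 on the opposite strand.

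The 11 members that fell in control cells came from complexes I, II, IV and V. Cox8a went from 254, 222 and 213 FPKM without LPS to 177, 172 and 156 with LPS, and the groups did not overlap. It fell by 0.45 ± 0.11 on the log2 scale (adjusted p = 0.00589 by limma), or -0.27 relative to the median gene. Ndufv3, an accessory subunit of the NADH-oxidizing module of complex I (ENSMUSG00000024038, chr17:31520115-31531331, plus strand), was at 11.1, 14.2 and 13.5 FPKM without and 7.87, 8.98 and 9.55 with LPS, without overlap (-0.50 ± 0.11, 0.00243). In the c ring, Atp5g1 was at 13.1, 9.99 and 8.52 FPKM and 6.79, 8.02 and 4.69 (-0.63 ± 0.21, 0.0262), and with its copy summed -0.42 ± 0.09 (0.00205). Atp5g2 had -0.45 ± 0.11 (0.00658), and Atp5g3, which was not called, -0.32 ± 0.18 (0.167).

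The remaining called members with lower values were Atp5s (-0.57 ± 0.18), Ndufa1 (-0.40 ± 0.13), the complex II anchor Sdhc (-0.34 ± 0.09), Cox6a1 (-0.33 ± 0.11), the complex I core subunit Ndufs1 (-0.29 ± 0.10), Ndufb3 (-0.28 ± 0.08) and Cox7c (-0.20 ± 0.07). With median-ratio scaling none of the 11 was called, Cox7c turned to 0.04, and the other 10 stayed below 0. Cox7c was also not called with its copies summed (-0.19 ± 0.09, adjusted p = 0.0840 by limma), while Ndufs3 and Atp5h were (0.30 and -0.30, 0.0432 and 0.0153). This brought the counts to 11 higher and 11 lower (15.3% and 33.0% of all genes). Leaving out a single library ended the call of Cox7c in 6 of 12 fits, Ndufs1 in 5, Atp5s and Cox6a1 in 4, Ndufa1 in 3, Atp5g1 in 2 and Ndufb3 in 1, with adjusted p of 0.0531 to 0.113 there. The coding sequences of members called higher had a median length of 1098 bases and of those called lower 408. Over all 78 members Spearman's rho between coding length and log2 change was 0.34, where over 10162 genes with a coding length it was -0.24. Both are descriptions across genes of the same libraries, and whether transcript length bears on these values was not tested.

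**Figure D4:**
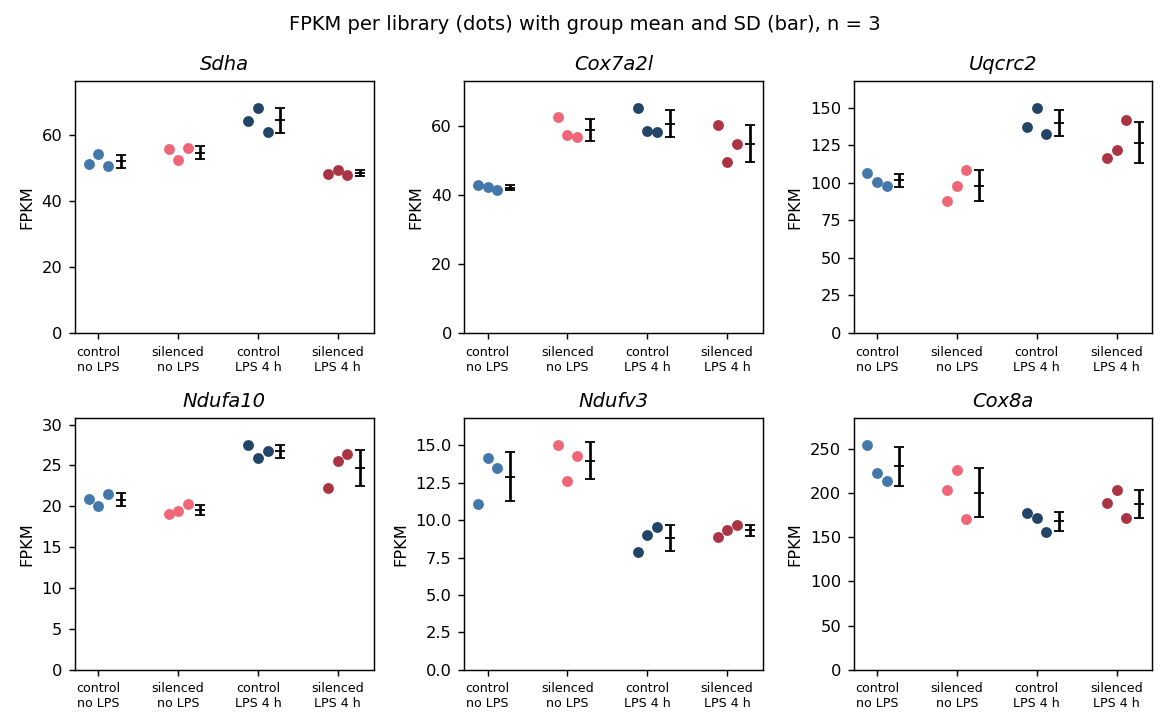
FPKM of 6 members in each library (dots) of the 4 groups, with the group mean and SD beside them (n = 3, vertical axes from 0). Sdha is highest in control cells with LPS, Cox7a2l lowest in control cells without LPS, Uqcrc2 and Ndufa10 higher and Ndufv3 lower with LPS in both kinds of cell.

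In silenced cells LPS called fewer members, with 2 of 78 higher and 9 lower, while 48.5% of all genes tested were called, 13% higher and 35.5% lower. The median was -0.09 over the members and -0.21 over all genes. Median-ratio scaling gave 17 higher and 0 lower (22.7% and 21.6% of all genes), and quantile normalization 1 and 16 (17.2% and 25.7%), so the direction depended on the scaling here too. The count of lower members was 4 without replicate 1, 3 without replicate 2 and 16 without replicate 3 of the silenced cells lacking LPS. Of all genes, 31.6%, 31.5% and 33.2% were lower there. The lower count was 4 without replicate 1 or 3 of those with LPS (33.8% and 30.7% of all genes). The count of higher members was 4 without replicate 1 of the silenced cells with LPS (12.7%). Uqcrc2 was at 87.9, 98.1 and 108 FPKM without and 116, 121.5 and 142 with LPS, without overlap (0.36 ± 0.10, adjusted p = 0.00875 by limma), and was not called under quantile normalization (0.11, 0.394). Ndufa10 was at 19.0, 19.5 and 20.2 and 22.2, 25.6 and 26.4 FPKM (0.32 ± 0.08, 0.00531) and was called in all 23 alternative settings. Ndufv3 went from 15.05, 12.6 and 14.3 to 8.90, 9.38 and 9.66 FPKM (-0.54 ± 0.11, 0.00156) and Ndufs1 from 15.3, 16.2 and 16.0 to 12.2, 10.8 and 10.8 (-0.46 ± 0.10, 0.00255). In these 4 genes no library with LPS overlapped with one without. Exons of Ndufs1 overlap those of Eef1b2 and Ino80dos on the opposite strand. Silenced libraries with LPS lay all above those without in 2 of 78 members and all below in 10, against 16.0% and 41.9% of all genes tested.

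The other members that fell in silenced cells were Atp5s (-0.61 ± 0.18), Atp5k, a small membrane subunit of complex V (-0.59 ± 0.22), the F1 epsilon subunit Atp5e (-0.51 ± 0.17), Ndufc1 (-0.44 ± 0.15), the complex II anchor Sdhd (-0.36 ± 0.13), Ndufa13 (-0.35 ± 0.12) and the F1 gamma subunit Atp5c1 (-0.24 ± 0.08, which turned to 0.04 with median-ratio scaling). Atp5k lost its call with its copy summed (-0.43 ± 0.23, adjusted p = 0.143 by limma), and Atp5g1 gained one (-0.31 ± 0.09, 0.0126). Calls ended in 7 of 12 fits without a single library for Atp5k, in 5 for Atp5e and Sdhd, in 4 for Atp5c1 and Ndufc1 and in 3 for Ndufa13, with adjusted p of 0.0514 to 0.174 there. Sdhd stood at 173, 173 and 134 FPKM without and 123.99, 126.9 and 118.7 with LPS in silenced cells, and at 172, 181 and 137 and 143, 143 and 115 in control cells. Its change in control cells, -0.29 ± 0.13, was not called (adjusted p = 0.0941). Of the 14 tested complex IV members 0 were called in silenced cells by limma, where 48.5% of all genes tested were. An unadjusted p under 0.05 was found for 0 of these 14, for 18 of all 78 tested members (23.1%) and for 54.6% of all genes tested.

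The comparisons of LPS in control and in silenced cells use different libraries. Called in both were Uqcrc2 and Ndufa10, higher, and Ndufv3, Ndufs1 and Atp5s, lower. A further 16 members were called in control cells and 6 in silenced cells, and 0 were called in opposite directions. Shared and opposite calls were not counted over all genes, of which 48.2% and 48.5% were called. These counts therefore do not show whether the members differ from other genes. Whether the LPS change differed between the cells was tested by the interaction, in which 0 of 78 members were called by limma and 0.0612% of all genes tested (0.0382% higher and 0.0229% lower), and 7 members (8.97%) and 11.3% of all genes had an unadjusted p under 0.05. Cox7a2l and Sdha had the smallest p. The LPS change of Cox7a2l was 0.51 in control and -0.10 in silenced cells, a difference of -0.62 ± 0.12 (adjusted p = 0.138), and its silenced libraries were at 62.7, 57.4 and 56.9 FPKM without and 60.3, 49.6 and 55.0 with LPS. The low group was thus the control cells without LPS, and the other 3 groups overlapped. The change of Sdha was 0.30 in control and -0.17 in silenced cells, a difference of -0.47 ± 0.09 (adjusted p = 0.138), and its silenced libraries were at 55.7, 52.4 and 56.0 FPKM without and 48.2, 49.5 and 48.0 with LPS. Here the high group was the control cells with LPS, and the silenced libraries with LPS lay below those without. The changes of both genes in silenced cells turned positive with median-ratio scaling (0.17 and 0.11). Atp5b followed with -0.31 ± 0.11 (0.337).

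**Figure D5:**
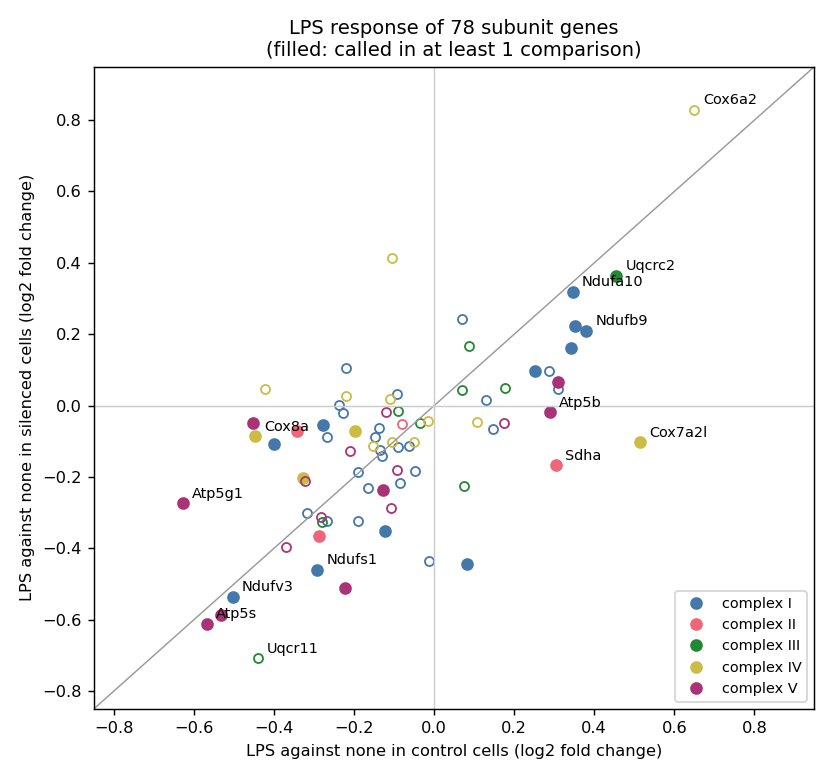
Log2 fold change with LPS of the 78 tested members in control cells (horizontal) and in silenced cells (vertical), coloured by complex, with the line of equal change in grey and filled dots for members called in at least 1 comparison. Uqcrc2 and Ndufa10 lie high and Ndufv3 and Atp5s low in both, while Cox7a2l and Sdha are above 0 in control cells and below 0 in silenced cells as deposited.

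Catalytic subunits that no comparison called had the following log2 changes with LPS in control cells: Ndufv1 at 0.31 ± 0.14, Ndufs3 at 0.29 ± 0.13, Ndufs7 at -0.27 ± 0.13, Ndufs8 at -0.14 ± 0.12, Sdhb at -0.08 ± 0.08, Cyc1 at 0.09 ± 0.10, Uqcrfs1 at -0.04 ± 0.08 and Atp5a1 at 0.17 ± 0.11. Cox4i1, the largest nuclear subunit of complex IV, was at 93.2, 85.8 and 86.7 FPKM without and 53.7, 76.2 and 69.5 with LPS in control cells. Its groups did not overlap, yet its change of -0.42 ± 0.17 was not called (adjusted p = 0.0566). Cox6a2 had the largest fitted change of all tested members in both kinds of cell, 0.65 ± 0.70 and 0.83 ± 0.70, and was called in neither (adjusted p = 0.476 and 0.359). It passed the filter on 4 libraries, 2 of them replicate 3 with LPS, and its exons overlap those of Itgad on the opposite strand.

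Other genes of the pathway were read beside the members. Their counts stand against 15.3% higher and 32.9% lower over all genes in control cells and, in silenced cells, 13% and 35.5%, or 24.6% and 21.8%, and 22.7% and 21.6%, with median-ratio scaling. The 13 mitochondrially encoded subunits all fell with LPS in control cells, from -0.56 ± 0.09 for mt-Cytb (adjusted p = 0.000296 by limma) to -0.41 ± 0.10 for mt-Co3, with a median of -0.51. In silenced cells 6 of 13 fell, with a median of -0.24. The interaction called none of them (lowest adjusted p = 0.326 by limma, mt-Co1). Without LPS they summed to 47824 ± 3822 FPKM in silenced cells, against 53370 ± 3271 in control cells. With median-ratio scaling 4 and 0 of 13 fell, with medians of -0.27 and 0.04, so the direction in silenced cells turned with the scaling. Regulators of mitochondrial biogenesis held 0 higher and 7 lower of 14 in control cells and, in silenced cells, 0 and 8 (1 and 4 in both with median-ratio scaling). The largest falls were in Ppargc1b, a coactivator of respiratory chain genes, in control cells (-0.99 ± 0.12, adjusted p = 3.46e-05) and in Twnk, the mitochondrial DNA helicase, in silenced cells (-1.06 ± 0.13, 3.74e-05).

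Assembly factors of complex I had 0 higher and 5 lower of 15 in control cells and, in silenced cells, 0 and 4, where the share of lower calls in control cells is near the 32.9% over all genes. These counts turned with the scaling, to 4 and 1 and to 2 and 1 with median-ratio scaling, and to 3 and 0 and to 2 and 1 under quantile normalization. The lowest among calls were Ndufaf6 in control cells (-0.62 ± 0.18) and Ndufaf7 in silenced cells (-0.62 ± 0.12). Assembly factors of complexes II to V had 2 higher and 4 lower of 33 in control cells and, in silenced cells, 4 and 9 (9 and 2, and 6 and 3, with median-ratio scaling). Among them Sco2, which brings copper to complex IV, was highest among calls in both (0.48 ± 0.15 and 0.65 ± 0.15), and the complex IV assembly factors Coa6 in control cells (-0.84 ± 0.21) and Cmc2 in silenced cells (-1.33 ± 0.17) were the lowest called. Mitochondrial ribosomal proteins had 10 higher and 11 lower of 78 in control cells and, in silenced cells, 7 and 20 (30 and 6, and 22 and 4, with median-ratio scaling).

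Of the steps that feed the chain, TCA cycle enzymes had 4 higher and 1 lower of 14 in control cells and, in silenced cells, 0 and 2 (8 and 0, and 5 and 0, with median-ratio scaling). Idh3g was highest among calls in control cells (0.31 ± 0.11) and Ogdh lowest in both (-0.45 ± 0.11 and -0.49 ± 0.11). Among 10 genes of pyruvate entry, 1 rose and 1 fell in control cells and, in silenced cells, 1 and 4 (3 and 1, and 2 and 1, with median-ratio scaling). Pdk1, a kinase that inhibits pyruvate dehydrogenase, fell in both (-1.23 ± 0.15, adjusted p = 5.59e-05 by limma, and -1.15 ± 0.15, 8.80e-05). Pdha1, a catalytic subunit of pyruvate dehydrogenase, rose in control cells (0.47 ± 0.09, 0.00143), and Mpc1, a mitochondrial pyruvate carrier subunit, in silenced cells (0.60 ± 0.17, 0.0124). Each gene named here or among the assembly factors and regulators kept its direction in that comparison under all 5 scalings.

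In none of these lists was a gene called with silencing by limma, either without or after LPS. Unadjusted p-values were under 0.05, without and after LPS, for 4 and 0 of 13 mitochondrially encoded subunits, 1 and 1 of 14 biogenesis regulators, 1 and 5 of 15 complex I assembly factors and 1 and 2 of 33 for complexes II to V. For the TCA cycle the counts were 1 and 2 of 14, for pyruvate entry 1 and 1 of 10 and for mitochondrial ribosomal proteins 9 and 2 of 78. Over all genes tested the shares were 12% and 13%.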

How the data were processed

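RNA-seq FPKM of 12 libraries were read from 1 table of 53801 Ensembl records, as deposited by the authors. HISAT2, StringTie and GRCm38 are given, with no versions, per the submitters' processing notes. The members, the comparison lists and the tests were chosen with earlier results of these data known. Of the records, 53706 were found by ID in GENCODE M21 (GRCm38). Genes with at least 1 FPKM in at least 3 libraries were tested (13078) with limma 3.58.1 in R 4.3.3 on log2(FPKM + 1), with 1 mean per group, an intensity trend and 8 residual degrees of freedom. Tests were 2-sided, with Benjamini-Hochberg adjustment over all genes tested in each comparison, and the script was tested on simulated data. Members named in the text are the catalytic subunits, the isoform genes, the 3 highest and 3 lowest by level, up to 8 called per direction and comparison or, with no call, the 3 lowest p; Ndufs5, Uqcr11 and the members beyond 8 were added after their values were seen. One member enters the counts but is not reported by name here. Near copies were found with blastn 2.17.0 over coding sequences. Depth could not be recovered: a step of 1 fragment, estimated from low values of 32930 genes, changed by over 1.5 times with the search window in 2 of 12 libraries. Settings varied were the pseudocount (0.1), the filter (none, or 5 FPKM), 4 other scalings, the replicate number as a block, the groups in the fit, the trend, each library left out, and, chosen after seeing the data, members summed with their copies.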

Additional observations from a re-analysis of the deposited data

How the results depend on the processing

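Silencing without LPS called 0 members, and 1 higher member (Cox7a2l) with the stricter filter, with median-ratio scaling and with the replicate block, and 0 to 1 when each library was left out. Over all genes, 39 of 8474 were called with the stricter filter, and 33 and 48 of 13078 with median-ratio scaling and the block. Silencing after LPS called 1 member lower (Sdha), 0 without the intensity trend or with only the groups compared, and 0 to 1 when each library was left out. With LPS in control cells, 10 higher and 11 lower members became 20 and 0 with median-ratio scaling, 3 and 24 with quantile normalization, and 6 and 22 with a common sum without mitochondrially encoded genes. With no filter 7 members were lower, where 16.3% of all genes then tested were, against 32.9% with the filter. Leaving out each library gave 9 to 12 higher and 6 to 13 lower, where 13.5% to 15.5% and 28.9% to 33.2% of all genes were called. With LPS in silenced cells, 2 higher and 9 lower became 17 and 0 with median-ratio scaling (22.7% and 21.6% of all genes). They became 1 and 16 with quantile normalization (17.2% and 25.7%). The lower count was 16 with a common sum (39.6%), 21 with a common sum without mitochondrially encoded genes (42.8%) and 5 with only the groups compared (34.7%). Omitting each library in turn gave 2 to 4 higher and 3 to 16 lower, where 11.2% to 13.3% and 30.7% to 36.2% of all genes were called. Changes of named members that turned were, with median-ratio scaling, Cox7c in control cells (0.037) and Atp5c1 (0.044), Sdha (0.11) and Cox7a2l (0.17) in silenced cells; the median of all genes moved upwards under that scaling by construction. The interaction called 0 members in all settings. With the replicate number as a block, LPS in silenced cells called 3 higher and 16 lower members (13.4% and 37.0% of all genes). LPS in control cells called 11 and 16 (16.0% and 34.2%), and silencing without LPS 1. The numbers share no stated culture, 18 correlations between same-numbered libraries of different groups ran from -0.027 to 0.19 with 3 over 0.1, and 10 of 12 libraries correlated best with their own number, which is a hint from the data and not from the design. Depth is unknown, and with 3 libraries a group small differences may be missed.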
